A study of Mus musculus with 13 samples.

Results

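Small interfering RNAs (siRNAs) to YBX3 were compared with nontargeting siRNAs in differentiating C2C12 myoblasts, that is, after 24 h in differentiation medium (1 day). C2C12 is an established mouse skeletal muscle line whose myoblasts stop dividing and fuse into myotubes when the medium is changed. The comparison rests on 5 of the 13 RNAseq libraries of the series, chosen by their labels: 2 control KD libraries (letters C and D) and 3 YBX3 KD libraries (letters B, C and D). The other 8 libraries are proliferating myoblasts (0 day), 4 control KD and 4 YBX3 KD with the letters A to D. All cells were unmodified C2C12 cells transfected once and harvested 48 h after transfection, so that both days share the time since transfection. The medium of the 1 day cells was changed 24 h after transfection. By the study's methods growth medium held fetal bovine serum and differentiation medium horse serum, at the same percentage, so the serum was exchanged and not lowered. The libraries are labelled as biological replicates, but the labels do not say whether they came from separate thaws or cultures. Letter B has no control KD library at 1 day.

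YBX3 (also DBPA, ZONAB or MSY3) is a Y-box protein with a cold shock domain that binds single-stranded nucleic acids. It is known to bind many mRNAs and to affect their stability and translation, and in the nucleus it has been described as a repressor of transcription, also at the promoter of the myogenic regulator myogenin. The knockdown was sequenced before and after the start of differentiation, a process in which YBX3 has been described to act, and the study then followed SLC1A5, a transporter of glutamine and other neutral amino acids.

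At 1 day few genes passed the test, and nearly all of them were lower after YBX3 KD. Ybx3 itself fell to 15.3% of control KD. A further 10 mRNAs, among them the gamma-secretase subunit Aph1b, the forkhead factor Foxk2, the nucleic acid binding protein Purb and the tetrahydrobiopterin recycling enzyme Qdpr, fell to between 43.8% and 67.1% of control KD, and 1 mRNA, the interferon-induced antiviral gene Rsad2, rose 2.51-fold. Of these 10 lower mRNAs, 8 hold in their 3′ untranslated region (3′ UTR) a match to the seed of a single siRNA listed for mouse YBX3. Such a match is found in 6.84% of all tested genes with a 3′ UTR. The seeds of 4 listed siRNAs were searched, and the others matched 1, 2 and 0 of the 10. The search was chosen with earlier results of these data known. The genes of amino acid transport, including Slc1a5, did not pass the test at 1 day.

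Library totals at 1 day ranged from 36819569 to 56778578 estimated counts, and replicates differed by more than counting noise. Of 55642 genes in the table, 16848 had enough counts to be tested. Levels are given as counts per 1000000 counts (CPM) with normalised library sizes. The C2C12 markers Myf5 (34.2 to 54.9 CPM) and Cdh15 (99.6 to 158 CPM) were present in all 5 libraries. The myoblast marker Myod1 was low, at 1.80 and 0.601 CPM in control KD and at 3.32, 2.44 and 1.51 CPM in YBX3 KD. Several markers of differentiation were low: Myog was at 0.427 CPM in control KD C and 0.0523 CPM in control KD D, and Myh3, Ckm, Mymx and Actc1 were under 0.4 CPM in both. These levels overlapped those of proliferating control KD cells, in which Myog was at 0.123 to 0.888 CPM, so these markers did not set the 2 control KD libraries of 1 day apart from proliferating myoblasts. Other muscle genes were higher, with Tnnt2 at 68.0 and 84.7 CPM, Des at 16.8 and 45.2 CPM and Myh1 at 12.4 and 1.31 CPM in control KD C and D, and Tnnt2 and Des overlapped their range at 0 day too (29.7 to 90.5 and 15.5 to 51.9 CPM). Of the markers of other cell types Adipoq, Ibsp, Adgre1, Ptprc, Pecam1 and Kdr were at or near 0 (at most 0.107 CPM). The macrophage markers Cd68 and Csf1r were at 1.55 to 2.46 and 0.457 to 1.08 CPM and the endothelial marker Cdh5 at 0.776 to 1.36 CPM, with overlapping groups. Runx2 (84.0 to 101 CPM) and Pdgfra (33.1 to 73.0 CPM) were found in all 5, and the fibroblast marker Dcn was at 1.88 and 4.13 CPM in control KD and at 1.80, 9.37 and 8.19 CPM in YBX3 KD. YBX3 KD D stood apart at 1 day by its lower cell cycle transcripts, whose sum was 2220 CPM against 5867 to 7728 CPM in the other 4 libraries, and at 0 day both libraries of letter D were low (3567 and 4078 CPM against 5847 to 7361 CPM).

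Ybx3 was measured first, as the target. It was at 347 and 294 CPM in control KD C and D, and at 47.0, 71.5 and 28.7 CPM in YBX3 KD B, C and D. The groups did not overlap, and depletion was least complete in YBX3 KD C. The log2 fold change was -2.71 with a standard error (SE) of 0.27 (adjusted p = 0.0057, edgeR quasi-likelihood test with Benjamini-Hochberg adjustment over all tested genes). Within letters, as log2 ratios of CPM + 0.1, it was -2.28 for C and -3.35 for D. The call rests on the spread learnt from all 13 libraries and on single libraries: the adjusted p was 0.113 without control KD C, 0.0592 without YBX3 KD B, and 0.972 when only the 5 libraries of 1 day were fitted.

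The siRNAs are shown for their target sites in Ybx3 and for their seeds. An siRNA silences its target through full pairing of its antisense strand, and the seed of that strand, bases 2 to 8 from its 5′ end, can also pair with other 3′ UTRs in the way a miRNA does. The study lists 4 siRNAs for mouse YBX3, shown here as antisense strands, 5′ to 3′, with the seed in capitals. For the RNAseq the study speaks of YBX3 siRNAs in the plural, and in other experiments it names a pool and the single siRNAs 05 to 08. Which of the 4 were transfected for the RNAseq is not given in the sources used here.
siRNA 05: uAUAGUUGuagggacgucg
siRNA 06: aUAGUAGCcgcgucuguac
siRNA 07: uCCAUAUCcauuucugacg
siRNA 08: aUACUUGCguggguuguuu
No seed is shared among them. Each strand is the exact complement of 19 bases of the Ybx3 coding sequence on chromosome 6 (GRCm39, minus strand), at chr6:131345399-131345417 for siRNA 05, chr6:131356348-131356366 for siRNA 06, chr6:131361477-131361495 for siRNA 07 and chr6:131357896-131357914 for siRNA 08. The sense strand listed for siRNA 07 is that of a human YBX3 siRNA, is not the complement of the antisense strand beside it and was not found in the Ybx3 transcript.

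With the thresholds of the study, a fold change above 1.3 and an adjusted p under 0.001, 0 of 16848 genes (0%) were called by edgeR at 1 day. At an unadjusted p under 0.05 there were 1327 genes (7.88%), of which 691 were higher and 636 lower, and limma-voom also called 0. DESeq2, the tool that the study used, here with Benjamini-Hochberg adjustment, called 25 genes (0.148%), 5 higher and 20 lower. At an adjusted p under 0.05 with the same fold change, edgeR counted 12 genes (0.0712%), 1 higher (0.00594%) and 11 lower (0.0653%), and all 12 were among the 25 of DESeq2. These 12 are described next, by what their products do. The spread they were tested against was learnt from all 13 libraries, not from the replicates of 1 day alone. The count was 0 without control KD C or without YBX3 KD B, 31 with the letter as a block, which shared 11 of the 12, and 0 with the 5 libraries of 1 day alone.

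**Figure D1:**
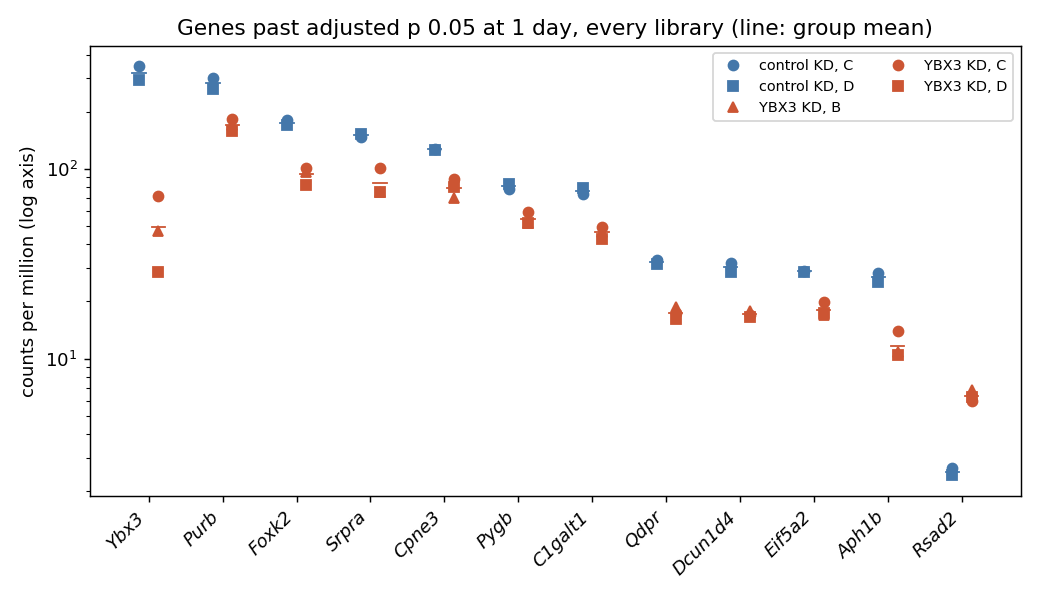
CPM on a log axis of the 12 genes past an adjusted p of 0.05 at 1 day, in each of the 2 control KD (blue) and 3 YBX3 KD (red) libraries, with lines at the group means. In each gene the groups are apart, with Ybx3 and 10 genes lower and Rsad2 higher in YBX3 KD.

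Aph1b is an alternative subunit of gamma-secretase, the protease that cleaves Notch and the amyloid precursor within the membrane. It lies on chromosome 9 (chr9:66612630-66702811, GRCm39, GENCODE vM39). It was at 28.3 and 25.2 CPM in control KD and at 10.8, 13.9 and 10.4 CPM in YBX3 KD. All 3 YBX3 KD libraries were well under both controls, with a log2 fold change of -1.19 (SE 0.12, edgeR adjusted p = 0.0057). Its neighbour and paralog Aph1c, with which reads can be shared, was at 2.09 and 3.16 CPM in control KD and at 1.11, 1.91 and 4.61 CPM in YBX3 KD, where the groups overlapped. The part of shared reads was not tested.

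Proteins that act on DNA and RNA made up another group. Foxk2, a forkhead transcription factor linked to metabolism and autophagy, was at 180 and 171 CPM in control KD and at 96.5, 101 and 82.4 CPM in YBX3 KD. Purb, which binds purine-rich single strands and is known as a repressor of muscle myosin and actin genes, was at 300 and 265 CPM in control KD and at 170, 184 and 159 CPM in YBX3 KD. Both fell with no overlap, Foxk2 to 53.3% and Purb to 60.5% of control KD (edgeR adjusted p = 0.0153 and 0.0194). Eif5a2, a paralog of the translation elongation factor eIF5A, was at 28.9 and 28.6 CPM in control KD and at 17.0, 19.8 and 17.4 CPM in YBX3 KD. Its controls were nearly equal, and it fell by 0.67 on the log2 scale (SE 0.10, edgeR adjusted p = 0.037). Eif5a2 was no longer past the threshold without YBX3 KD B or D of 1 day.

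Protein modification and secretion gave 3 of the lower genes. Dcun1d4, which helps to attach NEDD8 to cullins, was at 31.9 and 28.6 CPM in control KD and at 17.8, 17.0 and 16.6 CPM in YBX3 KD. C1galt1, the enzyme that builds the core 1 structure of mucin-type O-glycans, was at 73.7 and 79.1 CPM in control KD and at 46.4, 49.5 and 42.7 CPM in YBX3 KD. Srpra, the alpha subunit of the signal recognition particle receptor, was at 148 and 153 CPM in control KD and at 75.9, 101 and 75.3 CPM in YBX3 KD. The 3 YBX3 KD libraries were close together for Dcun1d4, while YBX3 KD C was the highest of them for Srpra and C1galt1. The log2 fold changes were -0.82 for Dcun1d4, -0.73 for C1galt1 and -0.84 for Srpra (edgeR adjusted p = 0.0144, 0.0452 and 0.0436). With the letter as a block Srpra was no longer past the threshold (adjusted p = 0.0543), nor was it without YBX3 KD B or D of 1 day. C1galt1 was no longer past it without any 1 of the YBX3 KD libraries of 1 day.

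The other lower genes serve metabolism and membranes. Qdpr, dihydropteridine reductase, regenerates the tetrahydrobiopterin used by aromatic amino acid hydroxylases, and it was at 33.2 and 31.3 CPM in control KD and at 18.7, 17.4 and 16.1 CPM in YBX3 KD. Pygb, the brain form of glycogen phosphorylase, was at 78.0 and 83.5 CPM in control KD and at 51.9, 59.2 and 51.5 CPM in YBX3 KD. Cpne3, a copine that binds membranes in response to calcium, was at 127 and 126 CPM in control KD and at 70.4, 88.0 and 80.6 CPM in YBX3 KD. None of these ranges overlapped. Qdpr fell by 0.89, Pygb by 0.58 and Cpne3 by 0.67 on the log2 scale (edgeR adjusted p = 0.0241, 0.0436 and 0.0375). Qdpr was no longer past the threshold without any 1 of the YBX3 KD libraries of 1 day, and Pygb and Cpne3 without B or D.

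Rsad2 (viperin), which is induced by interferon and blocks the replication of many viruses, was the 1 gene that rose. It was at 2.64 and 2.43 CPM in control KD and at 6.85, 5.96 and 6.27 CPM in YBX3 KD, from 136 and 93 counts against 388, 222 and 245. The libraries of each group were close together and far from those of the other group, with a log2 fold change of 1.33 (SE 0.19, edgeR adjusted p = 0.037). Rsad2 was no longer past the threshold without any 1 of the 5 libraries of 1 day, and its log2 fold change lay between 1.27 and 1.39 without any 1 of the 13.

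The 10 lower genes were next read for the seeds of the siRNAs. The letters searched in the 3′ UTR of 1 annotated transcript per gene (GENCODE vM39) were the complements of the 4 seeds, CAACTAT for siRNA 05, GCTACTA for siRNA 06, GATATGG for siRNA 07 and GCAAGTA for siRNA 08, on the mRNA strand only. A match to siRNA 08 was found in 8 of the 10 (80%), against 884 of the 12927 tested genes with a 3′ UTR (6.84%). It was found in 8.42% of the 9719 genes whose 3′ UTR lay anywhere between their shortest and longest, 520 and 7313 bases. Length was not matched within that range. Matches to siRNA 05, 06 and 07 were found in 1, 2 and 0 of the 10, against 6.72%, 4.90% and 5.97% of all genes. For nontargeting siRNAs 1, 2, 3 and 4 the counts were 0, 3, 6 and 3 of the 10, against 0.65%, 24.9%, 29.6% and 31.8% of all genes. The 9 matches to siRNA 08 are shown 5′ to 3′ on the mRNA strand, in windows of 25 bases with the match in capitals.
Aph1b: aacttcagctgaGCAAGTAaatatc
Dcun1d4: ctgtccccgtaaGCAAGTAttgcca
Foxk2: ttatgtcacataGCAAGTAaactaa
Purb, first match: aagaaccaggagGCAAGTAacccca
Purb, second match: tttttttggcagGCAAGTAtatttt
Qdpr: ttggtgatgtaaGCAAGTAaaaccc
Cpne3: aaatcaatcattGCAAGTAaattaa
Pygb: ccttcctttttaGCAAGTAaacctt
C1galt1: caggtaacactgGCAAGTAtttttg
The matches lie at chr9:66686139-66686145 in Aph1b, chr5:73715466-73715472 in Dcun1d4, chr11:121199047-121199053 in Foxk2, chr11:6423226-6423232 and chr11:6418674-6418680 in Purb, chr5:45591509-45591515 in Qdpr, chr4:19521378-19521384 in Cpne3, chr2:150673180-150673186 in Pygb and chr6:7872221-7872227 in C1galt1 (GRCm39). Eif5a2 and Srpra held no match to siRNA 08, nor did Rsad2 or Slc1a5, which says only that these letters were not in the window searched.

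Across all genes the shift was small. Genes with a match to siRNA 08 had a median log2 fold change of -0.053 at 1 day and the others one of 0.0057, and the same order was found within letter C (-0.047 and -0.014) and within letter D (-0.048 and 0.0054). Of the 884 genes with a match, 99 were lower at an unadjusted p under 0.05 (11.2%) and 25 were higher (2.83%). Over all 16848 genes tested, with or without a 3′ UTR, the shares were 3.77% and 4.1%. For siRNA 05, 06 and 07 the shares of genes with a match that were lower were 4.49%, 7.1% and 4.66%. The shares that were higher were 5.64%, 4.1% and 5.57%. Genes with a match to siRNA 08 have longer 3′ UTRs, with a median of 3140 bases against 1240 bases. For the other 3 YBX3 siRNAs the medians with a match lay between -0.020 and 0.016, and for the 4 nontargeting siRNAs between 0.016 and 0.049. With the letter as a block, 15 of the 17 lower genes other than Ybx3 with a 3′ UTR held a match to siRNA 08 (88.2%) and 0 of 10 higher genes did. Of the lower genes of DESeq2 11 of 18 held one (61.1%), and of the genes lower at 0 day 22 of 37 (59.5%). The part of seed pairing in these levels was not tested.

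**Figure D2:**
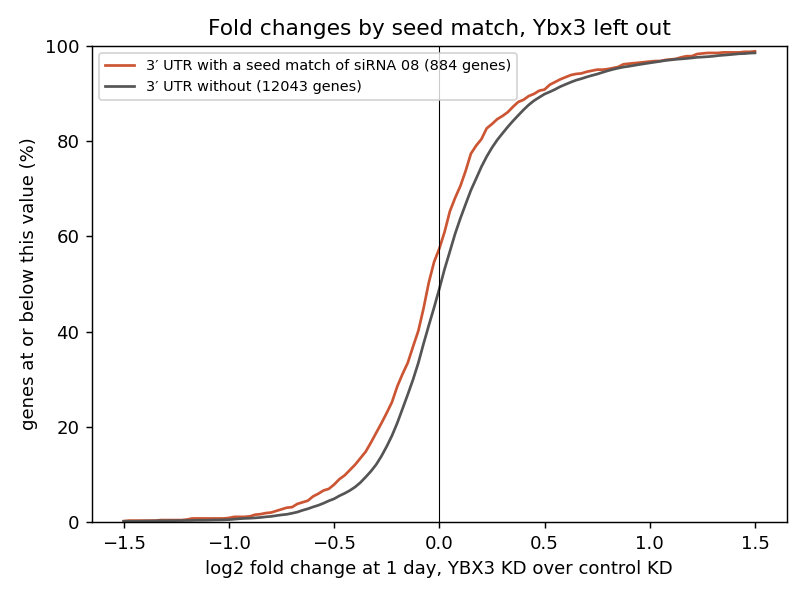
Cumulative share of genes, in percent, against the log2 fold change at 1 day, for 884 genes whose 3′ UTR holds a match to the seed of siRNA 08 (red) and the other 12043 genes with a 3′ UTR (grey), without Ybx3. The red curve lies to the left of the grey one, most clearly below 0, with medians of -0.053 and 0.0057.

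The same genes were then set beside proliferating myoblasts, which are separate libraries. Both comparisons use the spread learnt from all 13 libraries in the same fit, so their calls are not independent of each other. Of the 12 genes, 11 were also past an adjusted p of 0.05 at 0 day, where 78 genes were (0.463% of those tested, 0.237% higher and 0.226% lower), and all 12 had the same sign. On the log2 scale Aph1b differed by -1.19 at 1 day and by -1.27 at 0 day, Foxk2 by -0.91 and -0.98, and Ybx3 by -2.71 and -2.87. Rsad2 was the exception, with 1.33 at 1 day and 0.57 at 0 day (edgeR adjusted p = 0.108). Its control KD libraries were lower at 1 day (2.43 and 2.64 CPM) than at 0 day (3.27 to 4.33 CPM). Its YBX3 KD libraries overlapped between the days, at 5.96 to 6.85 CPM at 1 day and at 4.51 to 6.25 CPM at 0 day. In the test of the difference between the days 0 genes passed by edgeR at either threshold, 477 genes (2.83%) had an unadjusted p under 0.05, and DESeq2 called 1. Rsad2 was among the 477 (unadjusted p = 0.0073, adjusted p = 1.00), whereas the unadjusted p of the 11 lower genes lay between 0.259 and 0.970. A p of this size does not show that the effects were equal on both days.

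**Figure D3:**
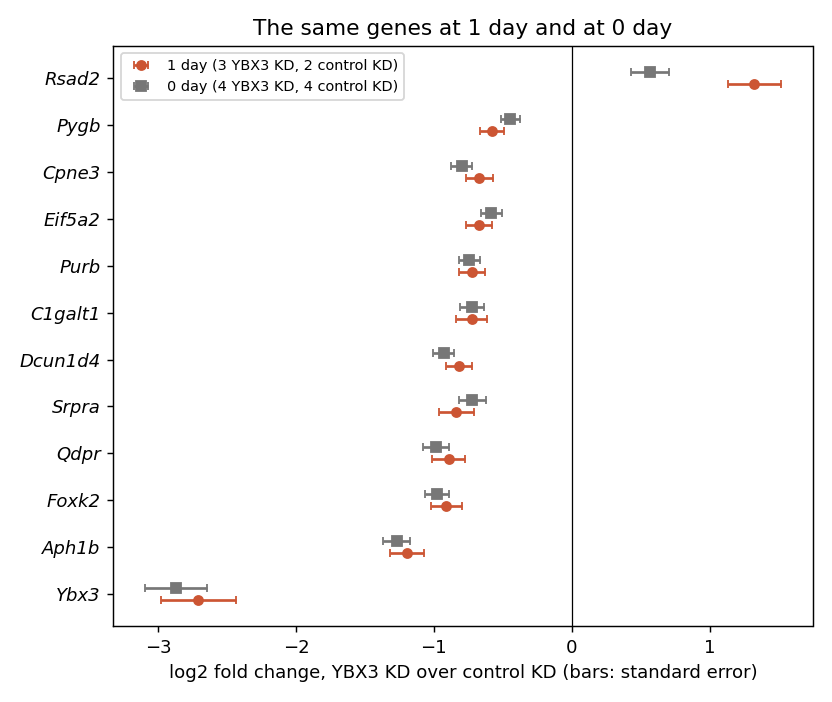
Log2 fold change of YBX3 KD over control KD for the 12 genes at 1 day (red circles) and at 0 day (grey squares), with bars for the standard error. The lower genes sit at like values on both days, and Rsad2 sits at 1.33 at 1 day and 0.57 at 0 day.

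Genes with the smallest p-values among the higher ones, other than Rsad2, did not pass an adjusted p of 0.05 and are given as values. Ikbkg (NEMO), the regulatory subunit of the kinase that activates NF-kappaB, was at 79.5 and 68.7 CPM in control KD and at 105, 107 and 113 CPM in YBX3 KD (edgeR adjusted p = 0.0856). Dglucy, which converts D-glutamate, was at 48.8 and 48.3 CPM in control KD and at 77.5, 79.9 and 67.2 CPM in YBX3 KD (edgeR adjusted p = 0.155). The groups of both genes did not overlap, as was the case for 1769 genes in this direction (10.5%) and for 1583 lower genes (9.4%). The others were Apol7a, an apolipoprotein L gene (log2 fold change 1.06), the collagen chains Col6a4 (1.40) and Col9a3 (1.32), the lysosomal phospholipase Pla2g15 (0.64), the centrosomal protein gene Cep170b (0.43), Etfbl (2.57, from under 0.2 CPM in control KD) and the T cell costimulatory ligand Cd80 (1.27). Pla2g15 was past the threshold with the letter as a block (adjusted p = 0.0438).

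Of the transcripts that the study followed up, none but Ybx3 passed the test at 1 day. The study called Slc1a5 lower from both days combined. In differentiating cells of 1 day it also found less of it by quantitative PCR and, as protein, by immunoblot. Single YBX3 siRNAs lowered the protein to a similar degree. The study further reported that YBX3 bound the mRNA and that a reporter with the Slc1a5 3′ UTR was lower after YBX3 KD. The test here covers 1 day alone. Slc1a5 was at 31.8 and 29.6 CPM in control KD and at 29.6, 23.4 and 23.4 CPM in YBX3 KD. YBX3 KD B was level with control KD D and the others were lower, with a log2 fold change of -0.27 (SE 0.15, edgeR adjusted p = 0.711, and 0.0841 with the letter as a block). Within letters the log2 ratio of Slc1a5 was -0.44 for C and -0.33 for D. At 0 day its log2 fold change was -0.33 (edgeR unadjusted p = 0.0156, adjusted p = 0.267). Slc7a5 and Slc3a2, the light and heavy chains of the L1 transporter, had log2 fold changes of -0.17 and 0.11, with SEs of 0.21 and 0.18, and the sign of both turned when single libraries were left out. Slc2a13, a myo-inositol transporter, was at 2.79 and 2.48 CPM in control KD and at 3.30, 3.95 and 3.97 CPM in YBX3 KD (edgeR adjusted p = 0.483). Slc1a3, a glutamate transporter, varied within groups, at 24.6 and 46.4 CPM in control KD and at 17.5, 32.5 and 11.6 CPM in YBX3 KD. Slc1a4, the closest relative of Slc1a5, differed by 0.076 on the log2 scale and Rpl10 by -0.014, while Ubn1, a histone chaperone subunit, differed by 0.31 (edgeR adjusted p = 0.847, 0.984 and 0.637).

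Over 28 tested amino acid transporter genes 0 passed an adjusted p of 0.05, 2 were higher and 0 lower at an unadjusted p under 0.05, a share of 7.14% against 7.88% of all genes. The median log2 fold change was 0.11, against 0.015 for all tested genes, and it was 0.0038 without YBX3 KD D and 0.065 without control KD D. The 2 higher genes were Slc7a11, the cystine-glutamate exchanger (log2 fold change 0.65), and Slc38a9, the lysosomal arginine sensor (0.41). Over 217 SLC transcripts 18 were higher and 4 lower (unadjusted p under 0.05), or 10.1% against 7.88% of all genes, with a median of 0.099 that was 0.041 without YBX3 KD D. The smallest p-value among them was that of Slc25a37, the mitochondrial iron importer mitoferrin, at 125 and 122 CPM in control KD and at 166, 159 and 200 CPM in YBX3 KD (edgeR adjusted p = 0.37). Of the targets of ATF4, the factor that responds to amino acid shortage, 2 of 22 were higher and 1 lower at an unadjusted p under 0.05. That is 13.6% in all, against 7.88% of all genes, with Sesn2 (0.47) and Slc7a11 above and Psat1 (-0.43) below control KD.

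Other members of the Y-box and cold shock family were not past the threshold. Ybx1, the abundant relative with which YBX3 shares RNA targets, was at 758 and 660 CPM in control KD and at 682, 569 and 433 CPM in YBX3 KD. The groups overlapped, with a log2 fold change of -0.34 (SE 0.19, edgeR adjusted p = 0.709). Carhsp1, which also has a cold shock domain, was at 94.9 and 98.8 CPM in control KD and at 90.4, 84.6 and 73.0 CPM in YBX3 KD.

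Of the gene lists with more than 2 tested members, the mitochondrial DNA encoded mRNAs (76.9%) and the interferon response (46.4%) had the largest shares of members with an unadjusted p under 0.05, against 7.88% of all genes. Type I interferon induces these genes, and the double-stranded RNA sensor Rigi lies upstream of interferon production. Of 28 tested members 1 (Rsad2) rose, 13 were higher and 0 lower at an unadjusted p under 0.05, and 27 had a log2 fold change above 0, as 52.2% of all genes did, with a median of 0.73 against 0.015 for all genes. Without any 1 library of 1 day the median lay between 0.69 and 1.01. Mx2, a GTPase against viruses, was at 0.233 and 0.131 CPM in control KD and at 1.18, 1.69 and 0.742 CPM in YBX3 KD, from 12 and 5 counts against 67, 63 and 29. Ifit1, which binds viral RNA, was at 1.61 and 1.80 CPM in control KD and at 4.17, 7.33 and 4.40 CPM in YBX3 KD. Rigi was at 47.1 and 45.4 CPM in control KD and at 59.3, 72.4 and 73.1 CPM in YBX3 KD. In these genes both controls lay under all YBX3 KD libraries, as they did in 18 of the 28 members and in 10.5% of all genes, while for Ifit2 the groups overlapped (log2 fold change -0.10). The levels were low for most, and apart from Rsad2 the smallest adjusted p was that of Mx2 (0.352, edgeR).

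At 0 day the median of the interferon genes was 0.11. Mx2 was then at 0.216 to 0.979 CPM in control KD and at 0.517 to 0.996 CPM in YBX3 KD. In the test of the difference between the days 7 of the 28 were larger at 1 day at an unadjusted p under 0.05, against 1.74% of all genes, and 0 passed the adjustment (adjusted p = 1.00). The summed level of the list was 637 and 668 CPM in control KD at 1 day and 771, 917 and 996 CPM in YBX3 KD at 1 day, where the groups were apart, and it was 614 to 895 CPM in control KD and 618 to 774 CPM in YBX3 KD at 0 day, where they overlapped. The macrophage markers Adgre1 and Ptprc were at or under 0.026 CPM at 1 day, and the summed macrophage markers were at 2.51 to 2.91 CPM in control KD and at 2.01 to 3.56 CPM in YBX3 KD.

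Transcripts of the mitochondrial genome, which encode subunits of the respiratory chain, took 1.94% and 1.42% of the counts in control KD C and D and 2.84%, 2.79% and 2.88% in YBX3 KD B, C and D. Of 13 such mRNAs 10 were higher at an unadjusted p under 0.05 and 0 were lower, with a median log2 fold change of 0.82 and 0 past the adjusted threshold. mt-Co1, a core subunit of cytochrome c oxidase, was at 8561 and 6200 CPM in control KD and at 13315, 11748 and 13881 CPM in YBX3 KD. Both controls were below all YBX3 KD libraries (edgeR adjusted p = 0.392). At 0 day the share of counts was 2.17% to 2.92% in control KD and 2.79% to 4.40% in YBX3 KD, so the control KD libraries of 1 day had the lowest shares of the series. Most of these 13 mRNAs are read from a shared polycistronic unit, so they are not independent of each other. They also move with the share of mitochondrial RNA in a library, whose part in these values was not tested. The nuclear genes of mitochondrial ribosomal proteins had a median of -0.15, which was -0.028 without control KD C. Of these 78 genes 0 were higher and 3 lower at an unadjusted p under 0.05 (3.85%, against 7.88% of all genes).

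**Figure D4:**
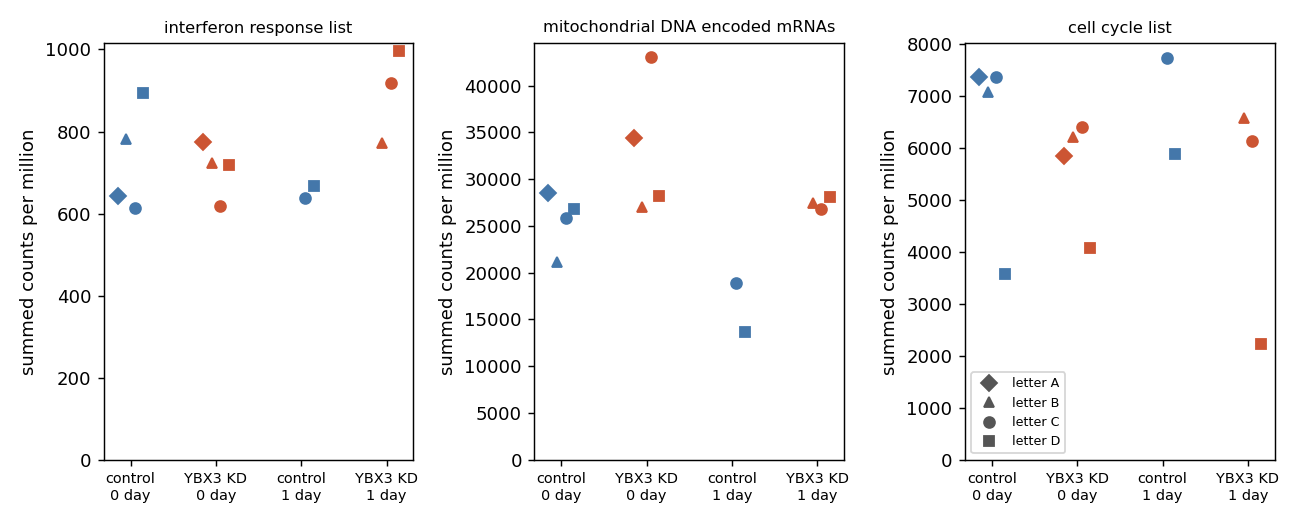
Summed CPM of the interferon response list (28 genes), the mitochondrial DNA encoded mRNAs (13) and the cell cycle list (42) in all 13 libraries, by group (columns, control KD blue and YBX3 KD red) and letter (symbols). At 1 day the groups are apart in the left and middle panels, and in the right panel letter D is the lowest of each group.

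The targets of p53 had a median log2 fold change of 0.47, with 5 of 21 higher (23.8%, against 4.1% of all genes) and 0 lower at an unadjusted p under 0.05. The median was 0.27 without control KD D and 0.31 without YBX3 KD B. Cdkn1a, the cyclin-dependent kinase inhibitor p21, was at 119 and 139 CPM in control KD and at 311, 261 and 364 CPM in YBX3 KD (log2 fold change 1.28, SE 0.32, edgeR adjusted p = 0.381). Eda2r, a receptor of the tumour necrosis factor family, was at 37.4 and 26.2 CPM in control KD and at 70.3, 62.9 and 50.4 CPM in YBX3 KD. The groups were apart in both, and the antiproliferative gene Btg2 (0.88), Sesn2 and the death receptor Fas (0.47) were the others of the 5. At 0 day the median was 0.36.

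The 42 cell cycle genes had a median of -0.63, with 36 below 0, while 52.2% of all genes were above 0. But 1 was lower and 2 higher at an unadjusted p under 0.05 (7.14% in all, against 7.88% of all genes). Ccnb2, a mitotic cyclin, was at 88.8 and 79.8 CPM in control KD and at 66.7, 66.2 and 27.3 CPM in YBX3 KD, and Plk1, a mitotic kinase, at 180 and 146 CPM and at 133, 115 and 28.2 CPM. YBX3 KD D was far below the other libraries. The median of the list was -0.21 without it and -0.42 without control KD C, and a fit with a letter block gave -1.02. The summed level was lower after YBX3 KD within both letters, at 7728 and 6135 CPM in C and at 5867 and 2220 CPM in D. The 2 higher members, Cdkn1a and Rb1 (0.27), are inhibitors of the cycle.

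The muscle genes were spread widely. Of 34 tested genes of the sarcomere and contraction 33 had a log2 fold change above 0, as 52.2% of all genes did. Their median was 0.84. At an unadjusted p under 0.05, 4 were higher and 0 lower (11.8%, against 7.88% of all genes), and 0 passed the adjusted threshold. The median was 0.079 without YBX3 KD C and 1.84 without control KD C, so single libraries set it. Myom2, a protein of the sarcomere M-band, was at 7.45 and 1.33 CPM in control KD and at 13.3, 21.4 and 26.4 CPM in YBX3 KD. Chrna1, a subunit of the muscle acetylcholine receptor, was at 235 and 224 CPM in control KD and at 244, 289 and 358 CPM in YBX3 KD. The groups were apart in these 2 genes and overlapped for Chrng (log2 fold change 1.99) and Ldb3 (0.58), which were the others of the 4. Fast myosin Myh1 was at 12.4 and 1.31 CPM in control KD and at 7.40, 57.3 and 1.07 CPM in YBX3 KD, and its log2 fold change of 1.64 turned to -0.66 without YBX3 KD C.

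Of the 24 tested myogenic regulators and fusion genes 3 were higher and 1 lower at an unadjusted p under 0.05 (16.7% in all, against 7.88% of all genes). Their median was 0.065, and between 0.0031 and 0.20 without any 1 library of 1 day. Myog was at 0.427 and 0.0523 CPM in control KD (22 and 2 counts) and at 0.176, 3.46 and 0.537 CPM in YBX3 KD (10, 129 and 21 counts), a high value in YBX3 KD C alone. Myod1 was at 1.80 and 0.601 CPM in control KD and at 3.32, 2.44 and 1.51 CPM in YBX3 KD, where the groups overlapped (log2 fold change 0.98, SE 0.48, edgeR adjusted p = 0.66). Cdh2, or N-cadherin, which holds fusing myoblasts together, was at 157 and 136 CPM in control KD and at 196, 171 and 207 CPM in YBX3 KD, and Tcf3, the E-protein partner of MyoD, at 155 and 179 CPM and at 147, 128 and 122 CPM. In such bulk libraries more cells that differentiate and more RNA per cell cannot be told apart.

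Collagen genes had a median log2 fold change of 0.24 at 1 day and 0.62 at 0 day. The value of 1 day was 0.49 without control KD D, 0.38 without YBX3 KD B, 0.14 without control KD C and 0.36 with the letter as a block. At 1 day 9 of 34 were higher and 1 lower at an unadjusted p under 0.05 (29.4% in all, against 7.88% of all genes), among them Col5a2, a fibrillar collagen at 1593 and 1445 CPM in control KD and at 2025, 1944 and 1711 CPM in YBX3 KD. The lower one, Col18a1, rested on control KD D, at 86.3 and 561 CPM in control KD and at 81.7, 97.3 and 149 CPM in YBX3 KD. In the test of the difference between the days 7 collagen genes were smaller at 1 day at an unadjusted p under 0.05, against 1.09% of all genes, and 0 passed the adjustment. Of the matrix and TGF-beta list (29 genes, median 0.096) Thbs1 (0.44) and the coreceptor Tgfbr3 (0.83) were higher and the receptor Tgfbr1 (-0.57) lower at an unadjusted p under 0.05. Their share was 10.3%, against 7.88% of all genes.

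Genes of the pentose phosphate pathway and of NRF2 had a median of -0.053. At an unadjusted p under 0.05, 4 of 24 were lower and 1 higher (20.8% in all, against 7.88% of all genes). G6pdx, the first enzyme of the pathway, was at 236 and 229 CPM in control KD and at 188, 179 and 190 CPM in YBX3 KD, and Pgd, a later one, was at 310 and 299 CPM and at 270, 220 and 268 CPM. The groups were apart in both (edgeR adjusted p = 0.399 and 0.577). Txnrd1 (-0.55) and Keap1 (-0.23) were the other lower ones. The 82 cytosolic ribosomal protein genes had a median of 0.033, with 2 lower and 0 higher at that p (2.44%). The 2 were Rpl4, at 1544 and 1394 CPM in control KD and at 1069, 1003 and 979.5 CPM in YBX3 KD, and Rpl7a (-0.37). Both have many processed copies in the genome, which can share their reads. Cholesterol synthesis genes had a median of -0.19 over 23 genes, which ran from -0.86 without YBX3 KD D to 0.18 without control KD D. Genes of the IGF axis had one of 0.23 over 13 (0.083 without YBX3 KD D). Each list held 1 lower gene at that p, Pmvk (-0.57, 4.35% of the list) and Igf2r (-0.45, 7.69%).

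**Figure D5:**
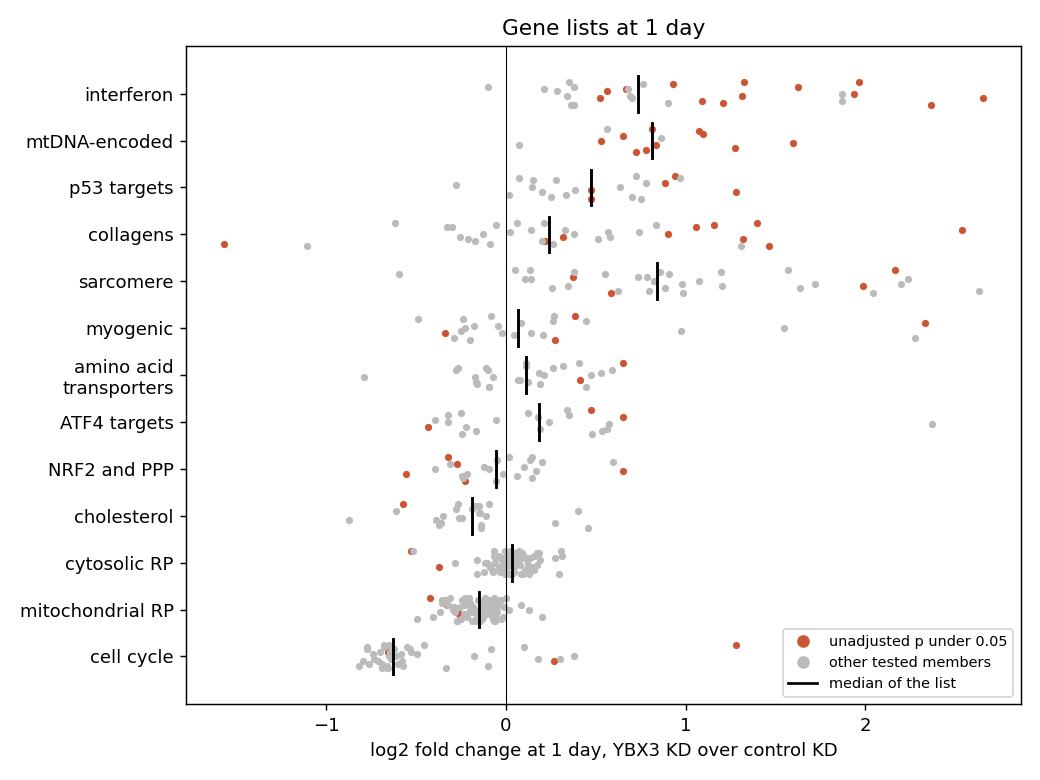
Log2 fold change at 1 day of each tested gene (points) in 13 gene lists (rows), with black lines at the list medians and red points where the unadjusted p was under 0.05. The interferon and mitochondrial DNA encoded lists lie to the right of 0 with many red points, and the sarcomere and cell cycle lists lie off 0 with few.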

How the data were processed

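Libraries were made with a stranded mRNA kit and quantified by the authors with Salmon against GRCm39 (Gencode M30). The deposited values are estimated counts per gene, already whole numbers, for 13 libraries; how transcripts were summed to genes is not given in the sources used here. Symbols and 3′ UTRs came from GENCODE vM39 by Ensembl ID (54969 of 55642 matched). Genes with enough counts (filterByExpr, 16848 genes) were fitted in edgeR 4.0.16 (R 4.3.3, TMM factors, quasi-likelihood with the newer option, which is not the default of that version) with a coefficient per group over all 13 libraries. DESeq2 1.42.0, which the study used with independent hypothesis weighting, and limma-voom 3.58.1 were alternatives. Named genes were the 12 past an adjusted p of 0.05, the 10 smallest p-values in each direction, the genes of the study and up to 4 per list; gene models and withheld items were counted only. A symbol shared by several IDs was used for the most abundant. The members, lists and seed search were chosen with earlier results of these data known. Scripts were tested on simulated data.

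Same-letter libraries tended to deviate together. Deviations from the group means correlated above 0.1 in 16 of 16 same-letter pairs (0.117 to 0.73) and in 11 of 46 other pairs. Pairs by title number, which disagrees with the letters at 1 day, correlated above 0.1 in 8 of 16. Some other-letter pairs correlated more than same-letter ones. Control KD C of 1 day gave 0.393 with YBX3 KD B and 0.182 with YBX3 KD C of that day. The pairs are not independent, as deviations within a group are tied by its mean, so they do not settle the pairing. The design had no block, since the study's methods name none, and the letter block was an alternative.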

Additional observations from a re-analysis of the deposited data

Results flagged for a closer look

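In groups of 4 libraries, single values far from the other 3 were found at 0 day for 4 of the genes named here. Slc1a5 was at 22.2 CPM in YBX3 KD D, Slc1a3 at 14.8 CPM in control KD D, Ubn1 at 76.5 CPM in control KD D and Myog at 0.678 CPM in YBX3 KD A. By chance about 1 in 20 groups holds such a value. The groups of 1 day are too small for this check.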

How the results depend on the processing

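At 1 day the calls at an adjusted p under 0.001 numbered 0 (0 higher, 0 lower). They were 25 with DESeq2 (5 and 20), 157 with DESeq2 and the letter as replicate block (74 and 83, chosen after seeing the data) and 12 (1 and 11) at an adjusted p under 0.05 with or without the fold threshold. Leaving out 1 library gave 0 to 2 calls, 0 to 2 of them lower. The difference between the days gave 1 gene with DESeq2 and 11 with DESeq2 and the letter block.

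The count at an adjusted p of 0.05, recounted under each setting after seeing the data, was 12. It was 119 with DESeq2, 4 with no filter, 31 with the letter as replicate block in edgeR, 0 with the title number as replicate block, 0 with only the 5 libraries of 1 day, 0 with only letters C and D and a replicate block, 1737 with DESeq2 and the letter block, and 0 to 16 without 1 library. It was 0 without control KD C or YBX3 KD B of 1 day and, of the libraries of 0 day, 2 without YBX3 KD A, 4 without control KD A or C, 5 without control KD B or YBX3 KD B and 6 without YBX3 KD C. The letter block lost the call of Srpra and gained 20 genes at 1 day, among them Anxa1, Stim2 and Pla2g15. The log2 fold change of Ybx3 was no longer past 0.05 with the title number block (-2.65, adjusted p = 0.0538), with the 5 libraries alone (-2.71, adjusted p = 0.972) and with letters C and D alone and a block (-2.81, adjusted p = 0.278). It ran from -3.07 to -2.44 without 1 library. The cause of these changes was not tested, except that fits with fewer libraries have fewer degrees of freedom.

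The sign turned for genes that were not called. Slc7a5 ran from -0.42 to 0.043 and Slc3a2 from -0.15 to 0.44 without 1 library, and Slc3a2 was -0.010 with letters C and D alone. Myh1 ran from -0.66 to 4.05, and Rpl10 from -0.066 to 0.057, with 0.0035 under the title number block. Beyond the values given here the letter block changed no other call. With 2 control KD libraries the spread within a group is poorly known at 1 day.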
